A study of Sus scrofa with 48 samples.

Results

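The insulin-like growth factor (IGF) system was described in the longissimus muscle of pigs through 10 genes, namely the ligands IGF1 and IGF2, their receptors IGF1R and IGF2R, the growth hormone receptor GHR and the binding proteins IGFBP2 to IGFBP6 (IGFBP2, IGFBP3, IGFBP4, IGFBP5 and IGFBP6). The genes were found by name on the microarray, as the gene name of a probe or as a symbol in brackets in its description. Of the 60305 distinct probes, 41 carried 1 of these names, and 38 of them were well above background, as the scanner software calls it, on at least 12 of the 48 arrays and were kept. The same filter kept 42125 probes in all, with 9302 gene symbols. The 10 genes each kept at least 1 probe, with 8 probes for IGF2, 6 for GHR, 5 for IGF2R, 4 each for IGFBP2 and IGFBP6, 3 for IGF1 and 2 each for IGF1R, IGFBP3, IGFBP4 and IGFBP5.

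The pigs were castrated males (barrows) of a pair of pig lines selected in opposite directions for residual feed intake (RFI), the part of feed intake that growth and body maintenance do not account for. The 48 pigs formed 4 groups of 12, with low RFI pigs (RFIneg) or high RFI pigs (RFIpl) given free access either to an HF diet, rich in both fat and fiber, or to an LF diet, low in both. A line is a selected population, so a difference between the lines includes any genetic drift between them, and no unselected line was analysed here. Total RNA from frozen muscle was labelled with Cy3 and each pig was hybridised on its own one-colour 60 K porcine array, with 2 arrays of each group on each of 6 slides. Expression is given as the log2 of the background-subtracted spot intensity after each array was centred on the mean of its tested probes, so that a value of 0 is the mean of an array. These values compare pigs for the same probe and not 1 probe with another.

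IGF1 and IGF2 are secreted hormones that promote growth of muscle and other tissues, IGF1 largely under the control of growth hormone and IGF2 with a leading part in fetal growth and in muscle cell differentiation. Both signal through IGF1R, a tyrosine kinase, whereas IGF2R, the mannose 6-phosphate receptor, takes up IGF2 for breakdown. Most IGF in body fluids is held by the binding proteins, which lengthen its life and restrain or direct its access to the receptor, and which proteases cleave to set it free.

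The probes printed below, as the array files list them, show which readings of a gene share letters, beside 1 of the called IGFBP5 probes. The other called probes, O9127 of IGFBP5, A_72_P376458 of IGF2 and A_72_P232282 of IGF1, are named only. The IGFBP5 probe is 1 of a pair that differed between the lines. The GHR probes share the 45 bases in capitals and both differed between the lines, so they are not independent readings. The IGF2 pair shares the 38 bases in capitals, and a further IGF2 probe stands on the array under a pair of names with the same letters, so that 8 IGF2 probes hold 7 different sequences.
IGFBP5 A_72_P146706: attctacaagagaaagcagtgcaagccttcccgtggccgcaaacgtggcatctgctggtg
GHR A_72_P441429: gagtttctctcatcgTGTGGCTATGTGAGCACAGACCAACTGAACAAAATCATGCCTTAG
GHR A_72_P303059: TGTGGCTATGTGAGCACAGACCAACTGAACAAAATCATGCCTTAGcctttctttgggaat
IGF2 A_72_P537638: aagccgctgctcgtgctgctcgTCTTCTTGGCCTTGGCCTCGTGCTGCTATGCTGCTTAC
IGF2 A_72_P537644: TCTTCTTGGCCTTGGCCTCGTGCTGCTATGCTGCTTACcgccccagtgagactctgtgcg
IGF2 A_72_P544532 and A_72_P414438: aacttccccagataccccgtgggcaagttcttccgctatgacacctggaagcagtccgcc
The forward primer designed for the PCR of IGF2, cgtgctgctatgctgcttac, lies whole within the capitals of both probes of that IGF2 pair. The 3 A_72 probes of IGFBP2 shared runs of 51 to 54 bases, the 2 probes of IGFBP3 a run of 30, a pair of IGFBP6 probes a run of 28 and a pair of IGF2R probes a run of 28.

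Of the 38 kept probes, 32 were well above background on all 48 arrays and the other 6 on 30 to 45. The kept probe nearest to the minimum was the IGFBP3 probe O12810, with 30 arrays, followed by the IGF1R probe A_72_P440946 with 32. Of the 3 probes left out, an IGF1 probe (A_72_P306168) reached 8 arrays, and an IGF1R probe (A_72_P146851) and an IGFBP4 probe (O5921) reached 3 each. The largest imbalance between the lines among kept probes was in the IGF2R probe A_72_P445023, well above background in 23 high RFI and 18 low RFI pigs.

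When the lines were compared over both diets (limma, Benjamini-Hochberg adjustment over all tested probes, threshold 0.05), 6 of the 38 probes differed, 3 higher and 3 lower in high RFI pigs. The share of all tested probes that differed was 16.4%, with 6.57% higher and 9.85% lower on the high RFI side, so the 6 of 38 is near the share on the whole array. At an unadjusted p under 0.05 the number was 15 of 38, against 13071 of all 42125 probes, or 31%. The median line difference, high RFI minus low RFI, was -0.01 over the 38 probes and -0.03 over all probes on the log2 scale, and the median size of the difference regardless of sign was 0.15 and 0.10, respectively. By gene, with 1 value for each, that median size was 0.11 over the 10 genes and 0.09 over all symbols. When the probes of a gene were averaged, IGFBP5 was higher in high RFI pigs and GHR was lower, and the other 8 genes did not pass the threshold, against 17.9% called of 9302 gene symbols. In this bulk tissue, fewer cells of a type and less RNA per cell cannot be told apart.

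**Figure D1:**
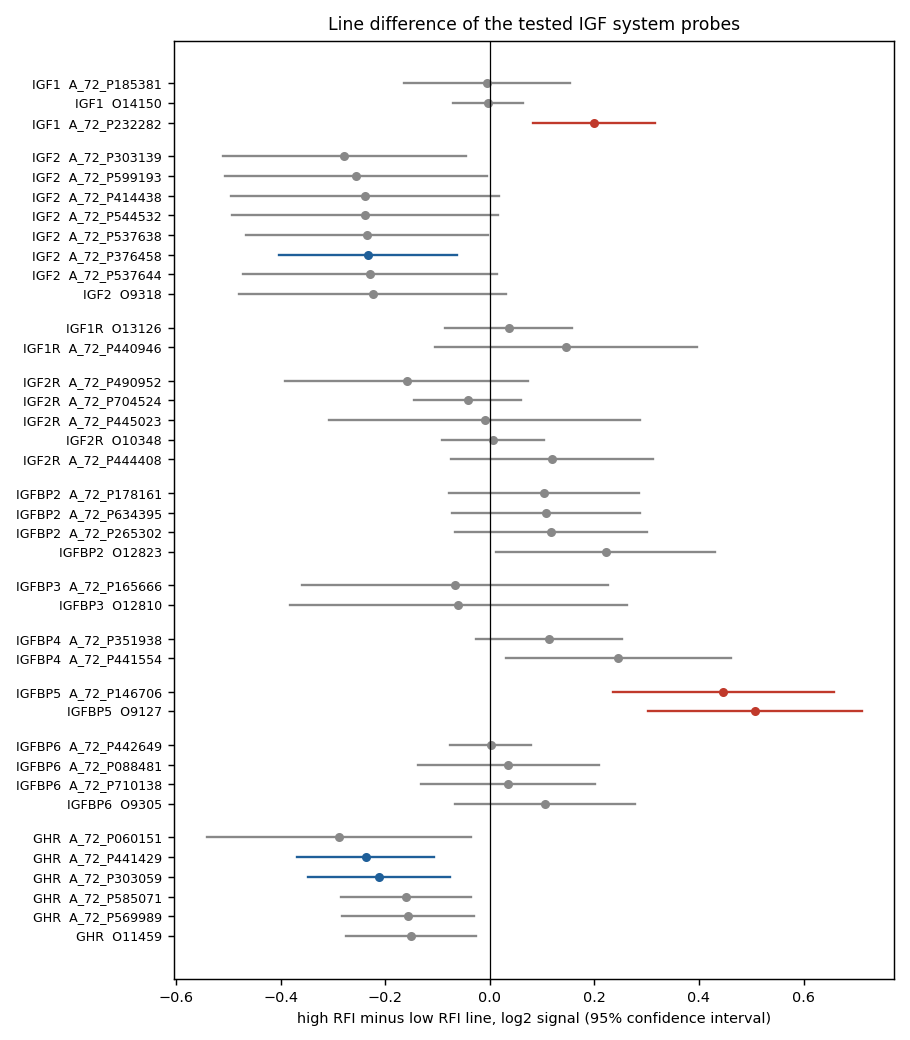
Line difference of each of the 38 probes (x axis, high minus low RFI in log2 units, with its 95% confidence interval from limma), grouped by gene on the y axis. Red and blue mark probes with adjusted p under 0.05 and a positive or negative difference, and gray marks the others. The 2 IGFBP5 probes lie near 0.45 and 0.51, and the 8 IGF2 probes and the 6 GHR probes all lie below 0.

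Of the ligands, IGF2 had lower values in the high RFI line for all 8 probes, but only its brightest probe, A_72_P376458, passed the threshold. On that probe the low RFI pigs had a median of 8.68 (8.14 to 9.02) under LF feeding and 8.66 (8.19 to 9.07) under HF feeding. The high RFI pigs had a median of 8.46 (8.20 to 8.91) under LF and 8.42 (7.62 to 9.02) under HF feeding. The 4 groups overlapped over most of their range, and 19 of 24 high RFI pigs were below the median of the low RFI line. The line difference of this probe was -0.23 (standard error 0.08, adjusted p = 0.04998). It passed in 3 of 11 alternative settings and missed the threshold in the 8 others, with adjusted p up to 0.33, so the call lies at the edge of what the settings allow. The differences of the other 7 probes ran from -0.22 (O9318) to -0.28 (A_72_P303139), with adjusted p of 0.09 to 0.22. The average of the 8 probes differed by -0.24 (95% confidence interval -0.47 to -0.01, adjusted p = 0.136).

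The 8 IGF2 probes gave nearly the same order of pigs within groups, with Pearson r of 0.937 to 0.997 over the 28 pairs. The spread between pigs of a group, a standard deviation of 0.41 for the gene, was above the median of 0.23 over 9302 gene symbols. Within the 6 slides the line difference of IGF2 ranged from -0.65 to 0.32 and was negative in 5 of 6. Within the 2 scan days it was -0.45 and -0.03. The difference between the days was not tested.

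IGF1 gave different readings from its 3 probes. The brightest, O14150, had nearly equal means, 1.74 ± 0.12 (SD, n = 24) for high RFI and 1.75 ± 0.08 (SD, n = 24) for low RFI pigs, with a difference of -0.003 (95% confidence interval -0.07 to 0.06). A_72_P185381 likewise had a difference of -0.01 (95% confidence interval -0.16 to 0.15). On A_72_P232282, in contrast, the difference was 0.20 (standard error 0.06, adjusted p = 0.0141). On that probe the low RFI pigs had a median of -0.58 (-0.86 to -0.29) under LF feeding and -0.56 (-0.71 to -0.36) under HF feeding, and the high RFI pigs -0.36 (-0.67 to 0.12) and -0.45 (-0.79 to 0.17), respectively. The lines overlapped, but 8 high RFI pigs lay above the highest low RFI pig and 20 of 24 above the median of the low RFI line. A second probe outside the name rule, labelled only with a sequence record and sharing 58 of 60 bases with A_72_P232282, followed it among pigs of a group (r = 0.898) and had a difference of 0.20 (adjusted p = 0.0449). As it holds nearly the same letters, it is not an independent reading. Among the 3 named probes r was 0.477 to 0.611. The average of the 3 IGF1 probes had a line difference of 0.06 (95% confidence interval -0.03 to 0.16, adjusted p = 0.368).

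Neither IGF receptor passed the threshold. IGF1R, the receptor through which both ligands act, had a brighter probe, O13126, with medians of 0.59 (0.25 to 1.04) for low RFI and 0.71 (0.28 to 1.06) for high RFI pigs, so that the ranges nearly coincided. The gene had a line difference of 0.09 (95% confidence interval -0.06 to 0.24, adjusted p = 0.407). Its 2 probes hardly followed each other among pigs of a group (r = 0.155), so this average is not a single reading. O13126 differed by 0.04 and the dimmer A_72_P440946, well above background on 32 arrays, by 0.15. IGF2R had a difference of -0.02 (95% confidence interval -0.11 to 0.08, adjusted p = 0.831), an interval that does not reach the size of the IGFBP5 difference described below in either direction. Its brightest probe, O10348, had medians of 4.12 (3.87 to 4.38) for low RFI and 4.16 (3.66 to 4.40) for high RFI pigs, with full overlap. The 5 IGF2R probes did not follow each other among pigs of a group, with r of -0.37 to 0.41 (median 0.01), so their average is not a single reading. O10348 has the same 60 letters as a probe that the array lists under the joint name of IGF2R and the mannose 6-phosphate receptor, and these followed each other (r = 0.883), while that second probe differed by -0.001 between the lines.

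GHR, the receptor through which growth hormone raises IGF1 production, had lower values in the high RFI line on all 6 probes, and 2 passed the threshold. On A_72_P441429 the low RFI pigs had a median of 2.54 (2.23 to 2.99) under LF and 2.50 (2.17 to 2.91) under HF feeding. The high RFI pigs had a median of 2.24 (1.77 to 2.64) under LF and 2.35 (1.85 to 2.66) under HF feeding. The lines overlapped, although 8 high RFI pigs were below the lowest low RFI pig and 4 low RFI pigs were above the highest high RFI pig. The difference was -0.24 (standard error 0.07, adjusted p = 0.00984). A_72_P303059, which shares 45 bases with it, had medians of 1.95 (1.56 to 2.42) for low RFI and 1.78 (1.20 to 2.17) for high RFI pigs, and 6 high RFI pigs lay below the lowest low RFI pig. Its difference was -0.21 (standard error 0.07, adjusted p = 0.0259), and a probe outside the name rule with the same 60 letters gave -0.22 (adjusted p = 0.0234).

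The brightest GHR probe, A_72_P569989, had a line difference of -0.16 (95% confidence interval -0.28 to -0.03, adjusted p = 0.079), with medians of 4.28 (3.93 to 4.82) for low RFI and 4.15 (3.61 to 4.45) for high RFI pigs. The other 3 probes differed by -0.15 to -0.29, with adjusted p of 0.068 to 0.105. Apart from A_72_P060151, whose r with the others was 0.250 to 0.397, the GHR probes followed each other, with r of 0.738 to 0.958. The average of the 6 probes fell by 0.20 on the log2 scale in the high RFI line (95% confidence interval -0.32 to -0.08, adjusted p = 0.0171), a ratio of 0.870. It was lower in 6 of 6 slides (-0.34 to -0.10) and by 0.20 on both scan days. The call on the average was lost in 3 of 12 alternative settings, namely under normexp, when dim probes were not filtered out and when the brightest probe replaced the average.

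**Figure D2:**
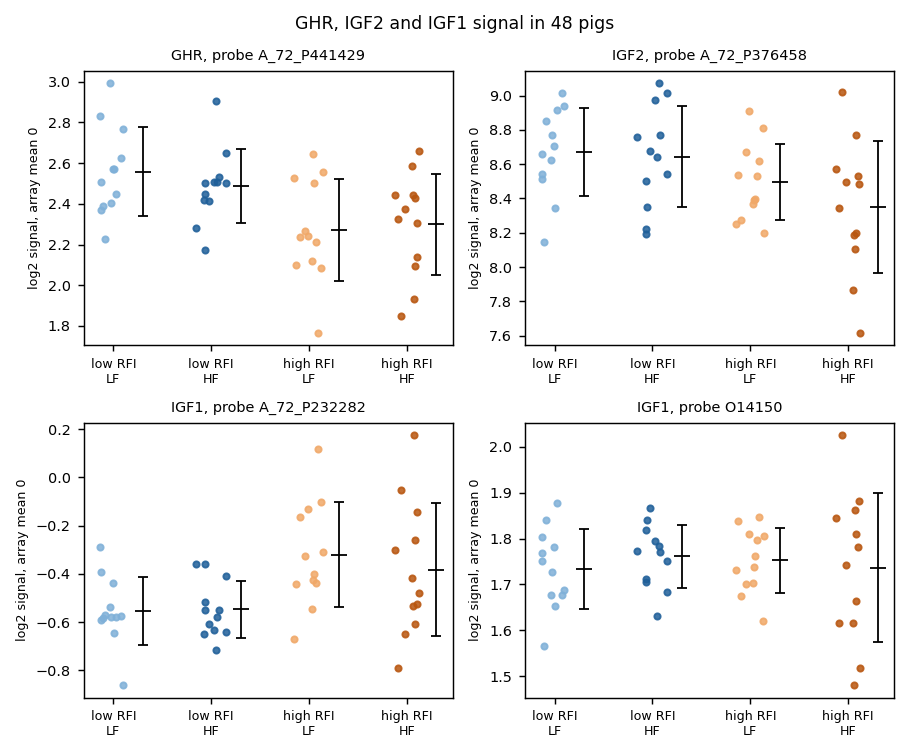
Log2 signal (y axes, array mean 0) of GHR probe A_72_P441429, IGF2 probe A_72_P376458 and IGF1 probes A_72_P232282 and O14150 in the 4 groups of 12 pigs (x axes, points are pigs, bars are mean ± SD). The high RFI groups lie lower for GHR and IGF2 and higher for the IGF1 probe A_72_P232282, with overlap in each panel, whereas the groups coincide for the IGF1 probe O14150.

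Of the binding proteins, IGFBP5 rose in high RFI pigs by 0.48 on the log2 scale (95% confidence interval 0.28 to 0.68, limma adjusted p = 0.000772), or 1.39-fold. IGFBP5 is the most conserved member of the family, is made by muscle cells and fibroblasts and binds to extracellular matrix. On its brighter probe, O9127, the low RFI pigs had a median of 4.33 (3.55 to 4.86) under LF and 4.31 (3.86 to 4.81) under HF feeding. The high RFI pigs had a median of 4.89 (4.21 to 5.46) under LF and 4.74 (4.26 to 5.49) under HF feeding. On this probe 12 of 24 high RFI pigs exceeded every low RFI pig and 8 of 24 low RFI pigs were below every high RFI pig, which was the clearest separation of the lines among the 6 probes called. The difference was 0.51 (standard error 0.10, adjusted p = 0.000529).

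The other IGFBP5 probe, A_72_P146706, printed above, had medians of 2.11 (1.44 to 2.80) for low RFI and 2.57 (1.84 to 3.30) for high RFI pigs. The lines overlapped more than on O9127, with 6 high RFI pigs above every low RFI pig. The difference was 0.45 (standard error 0.11, adjusted p = 0.00282). The 2 probes followed each other among pigs of a group (r = 0.860), and they share no run of 20 bases. The average was higher in the high RFI line in 6 of 6 slides (0.11 to 0.66) and on both scan days (0.43 and 0.52), and passed the threshold in all 12 alternative settings.

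**Figure D3:**
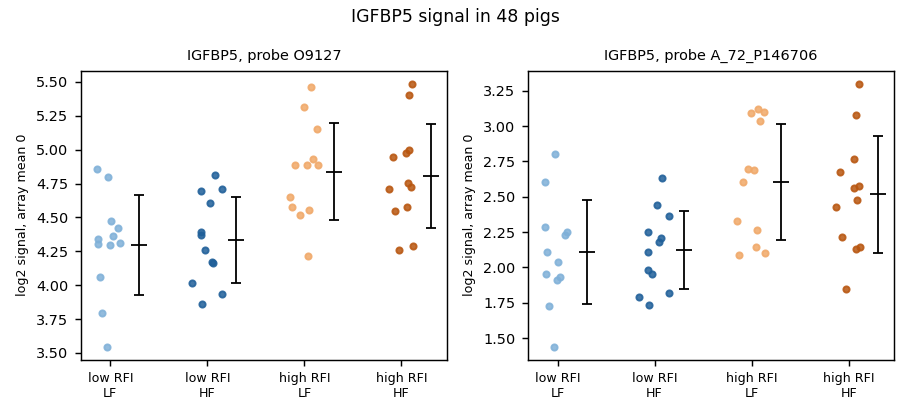
Log2 signal (y axes, array mean 0) of the 2 IGFBP5 probes in the 4 groups of 12 pigs (x axes, points are pigs, bars are mean ± SD). On both probes the high RFI groups lie above the low RFI groups on either diet, with medians of 4.89 and 4.74 against 4.33 and 4.31 for O9127.

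Some markers of cell types also differed between the lines, against 17.9% of all 9302 gene symbols called for the line. Of the 6 fibroblast markers, COL1A1 and COL1A2, the chains of type I collagen, rose in the high RFI line, by 0.38 (adjusted p = 0.0126) and 0.26 (adjusted p = 0.0264), and the mean of the 6 spanned 2.12 to 3.01 in the low and 2.26 to 3.22 in the high RFI line. Of the 4 macrophage markers, CD14, CD163 and CSF1R rose, by 0.34, 0.54 and 0.94, and the mean of the 4 spanned -3.55 to -1.84 in the low and -2.82 to -0.71 in the high RFI line. The only kept probe of CSF1R was well above background in 14 of 24 low RFI and 21 of 24 high RFI pigs. Its 0.94 is therefore not a measured fold. The only kept probe of CD68, which was not called, was so in 9 and 19. Of the CD163 probes, A_72_P018171 was well above background in 19 low and 24 high RFI pigs. For A_72_P170001 the numbers were 14 and 18, for A_72_P624895 18 and 23, and the other CD163 probes were so in all pigs. The size of the CD163 rise is therefore uncertain. Of 7 muscle fibre markers measured of 8, CKM and MYH4 fell, by 0.13 and 0.14, while the mean of the list spanned 8.10 to 8.69 in the low and 8.01 to 8.69 in the high RFI line. The adipocyte and endothelial lists had 1 of 5 called each (FABP4, 0.35, and TEK, 0.17). The satellite cell list and the smooth muscle list had none of 2 and none of 3 called in limma. At an unadjusted p under 0.05 they had 1 and 0, against 33% of all symbols. Of 5 liver markers SERPINA1 fell, by 1.43. Called or not, 5 of 6 fibroblast, 4 of 4 macrophage and 4 of 5 adipocyte markers had a positive line difference. CD68 was kept by the filter on dim probes only through the high RFI pigs. It is no support for the macrophage count or for the mean of that list. So did 2 of 7 muscle fibre, 2 of 5 endothelial and 0 of 5 liver markers. In the satellite cell and smooth muscle lists it was 1 of 2 and 1 of 3. The only kept probe of MYF5, a satellite cell marker, was well above background in 5 low and 13 high RFI pigs. MYF5 was thus kept only through the high RFI pigs and is no support for the counts of its list. The median difference of the endothelial list was -0.03. The part of these cell types in the values of IGFBP5 and GHR was not tested.

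The other 4 binding proteins did not pass the threshold. IGFBP4, a binding protein that mainly restrains IGF action, had a line difference of 0.18 (95% confidence interval 0.02 to 0.34, adjusted p = 0.100). Its brighter probe, A_72_P351938, had medians of 0.69 (0.30 to 1.14) for low RFI and 0.83 (0.24 to 1.15) for high RFI pigs, and its dimmer probe differed by 0.25 (adjusted p = 0.106). On the average of both probes, 19 of 24 high RFI pigs were above the median of the low RFI line. IGFBP2, which binds IGF2 with preference, had a difference of 0.14 (95% confidence interval -0.04 to 0.31, adjusted p = 0.274), and its brightest probe, A_72_P634395, had medians of 1.06 in the low and 1.07 in the high RFI line. IGFBP2 lies next to IGFBP5 in the RefSeq gene table of the pig, and their values among pigs of a group had r = 0.02 (rho = 0.02, permutation p = 0.907 and 0.913).

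IGFBP3, the main carrier of IGF in blood, had a difference of -0.06 (95% confidence interval -0.32 to 0.20, adjusted p = 0.770). Its brighter probe, O12810, had medians of -3.34 (-4.33 to -2.91) for low RFI and -3.33 (-4.85 to -1.83) for high RFI pigs. The interval of IGFBP3 was the widest of the 10 genes, followed by that of IGF2. IGFBP6, which prefers IGF2, had a difference of 0.04 (95% confidence interval -0.10 to 0.18, adjusted p = 0.694), and on its brightest probe, A_72_P088481, the median was 4.83 in both lines (4.22 to 5.44 for low RFI and 4.22 to 5.48 for high RFI).

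Within each diet IGFBP5 was again higher in the pigs with high RFI. Under HF feeding the average was higher by 0.43 (adjusted p = 0.0496) and under LF feeding by 0.52 (adjusted p = 0.0306), as 1 of the 10 genes called on each diet, against 6.99% and 2.77% of all symbols. The call on the HF diet was lost in 5 alternative settings. By probe, O9127 passed on both diets, with 0.47 (adjusted p = 0.0390) and 0.54 (adjusted p = 0.0302), as the only probe of the 38 to do so on either diet, against 6.39% and 2.47% of all probes. GHR differed by -0.17 (adjusted p = 0.218) under HF and by -0.23 (adjusted p = 0.128) under LF feeding. IGF2 differed by -0.29 (adjusted p = 0.266) and -0.19 (adjusted p = 0.568), respectively. The line by diet interaction passed the threshold for none of the 38 probes, and 0.00% of all probes were called in limma. At an unadjusted p under 0.05 there were 0 of the 38, against 4.45% of all probes. For IGFBP5 the difference of line differences, HF minus LF diet, was -0.09 (95% confidence interval -0.49 to 0.31). The largest interaction among the genes was that of IGFBP6, 0.26 (95% confidence interval -0.02 to 0.54, adjusted p = 0.998), with a line difference of 0.17 under HF and -0.09 under LF feeding.

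Between the diets, none of the 38 probes passed the threshold in limma, against 0.420% of all probes (0.237% of gene symbols). At an unadjusted p under 0.05 there was 1 of the 38, against 13.1% of all probes. That probe was A_72_P442649 of IGFBP6, lower by 0.08 on the HF diet (adjusted p = 0.338). The diet difference, HF minus LF, was -0.13 for IGFBP6 (95% confidence interval -0.27 to 0.01), -0.12 for IGF2 (95% confidence interval -0.36 to 0.11) and 0.16 for IGFBP3 (95% confidence interval -0.10 to 0.42). For IGFBP5 it was -0.02 (95% confidence interval -0.22 to 0.18) and for GHR -0.03 (95% confidence interval -0.15 to 0.09), so that on these genes a diet difference of the size of the IGFBP5 line difference lies outside the intervals. The median over the 10 genes was -0.01, as over all gene symbols.

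Relations between members were computed among pigs of the same line and diet. Of the 45 pairs of member genes, 1 was related after adjustment over the pairs, that of IGF2R and IGFBP6, with Pearson r = -0.543 (adjusted permutation p = 0.0072) and Spearman rho = -0.522 (adjusted permutation p = 0.0148). Without the 2 pigs farthest from the IGF2R median r was -0.489, and within the 4 groups it ran from -0.660 to -0.267. Since the IGF2R probes did not follow each other, the 5 were also taken 1 at a time against IGFBP6, which gave r of -0.184 to -0.390. IGF2 and IGFBP6 had r = 0.437 (rho = 0.416, adjusted permutation p = 0.0592 and 0.107), IGF2 and GHR r = -0.414 (rho = -0.359, adjusted permutation p = 0.070 and 0.172). IGF1 and GHR had r = -0.393 (rho = -0.315, adjusted permutation p = 0.107 and 0.268), which fell to -0.224 without the 2 pigs farthest from the IGF1 median.

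**Figure D4:**
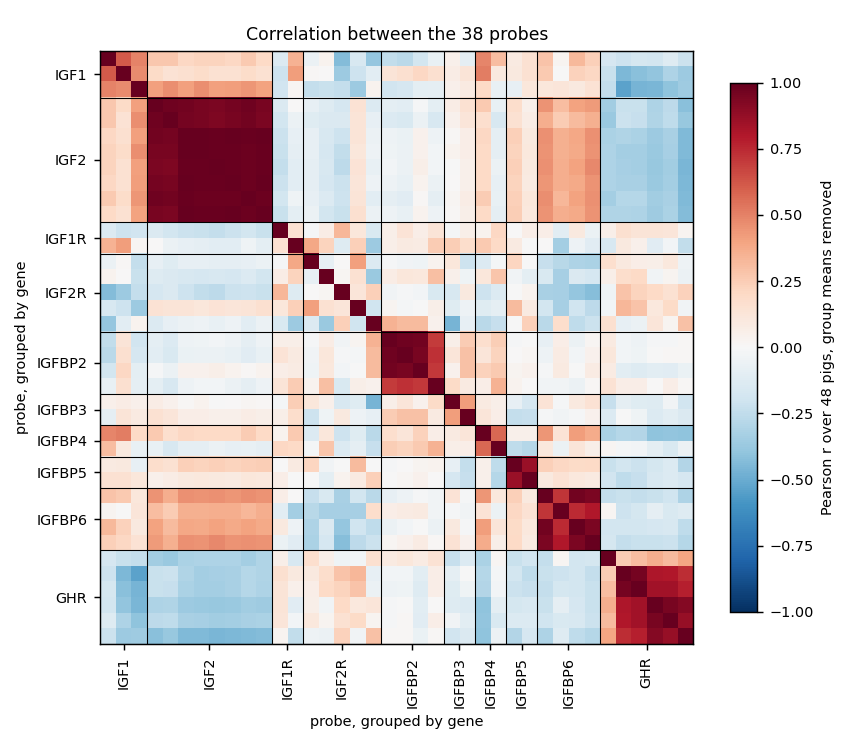
Pearson r between the 38 probes over the 48 pigs after removal of group means (colour scale from -1 to 1), with probes ordered by gene on both axes. The blocks of IGF2, IGFBP2, IGFBP5 and IGFBP6 and most of that of GHR are dark red, with a lowest r of 0.937 for IGF2, whereas the block of IGF2R is pale, with a median r of 0.01.

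The gene symbols whose values were most like those of each member over the 48 pigs, group means removed, were searched among 9275 symbols. UBE2G1, a ubiquitin-conjugating enzyme, followed GHR with r = 0.781, the highest of these values. CAPN6, a calpain without protease activity, followed IGF2 (r = 0.717), PCOLCE, an enhancer of collagen processing, followed IGFBP6 (r = 0.709), and SART1 followed IGF2R (r = 0.697). PLAT, the tissue plasminogen activator, followed IGFBP2 (r = 0.692), and SERPINE2, an inhibitor of such proteases, followed IGF1 (r = 0.674). TRIB2 followed IGFBP3 (r = 0.660), TNRC6C followed IGF1R (r = 0.632), GFPT2 followed IGFBP4 (r = 0.610) and PTPRA, a receptor tyrosine phosphatase, followed IGFBP5 (r = 0.569). Each is the highest of many values and is given as a description.

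Other genes of the growth hormone and IGF pathway were taken from a list of 39 symbols, of which 31 were measured. The line difference passed the threshold for 6 of 31, 3 of them up and 3 down in high RFI pigs, against 17.9% of all symbols called in either direction. One of the 3 up, ADAM28, was kept by the filter on dim probes only through the high RFI pigs and is no support for the count. Of the 3 down, IGFALS and IGF2BP2 each include a probe that reached 12 arrays in low but not in high RFI pigs. They are limited support for the count. The median difference of the 31 was -0.04 and that of all symbols -0.03. Among genes that act on IGF binding proteins, ADAM28, a membrane protease known to cleave IGFBP3, was well above background in 3 of 24 low RFI and 13 of 24 high RFI pigs on its only kept probe. With most low RFI pigs at background, its fitted difference of 1.38 (adjusted p = 0.00467) is not a measured fold. STC1, a stanniocalcin and inhibitor of the protease PAPPA, rose by 0.47 (adjusted p = 0.00926), with medians of -1.02 and -0.40. IGFALS, which joins IGF and IGFBP3 or IGFBP5 in the circulating complex, fell by 0.36 (adjusted p = 0.0195), with medians of -3.16 and -3.61. Its probe A_72_P223727 was well above background in 12 of 24 low RFI and 7 of 24 high RFI pigs, and O7855 in 23 and 24. With the first of these near background, the size of the IGFALS fall is uncertain. PAPPA itself, which cleaves IGFBP4 and IGFBP5, was well above background in 7 of 24 low RFI and 5 of 24 high RFI pigs, too few for a fold.

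Of the genes downstream of the receptors, SOCS3, a feedback inhibitor of growth hormone and cytokine signalling, rose by 0.62 (adjusted p = 0.0210), and INSR, the insulin receptor, fell by 0.24 (adjusted p = 0.0467), a call that was lost in 6 of 12 alternative settings. IGF2BP2, an RNA-binding protein of IGF2 mRNA, fell by 0.27 (adjusted p = 0.0222), a call that was kept in 9 of 12 alternative settings. It was lost with the filter on all arrays, in the deposited log2 table and with the brightest probe. The IGF2BP2 probe A_72_P098946 was well above background in 20 of 24 low RFI and 11 of 24 high RFI pigs, and A_72_P486592 in 12 and 14. With these probes near background, the size of the IGF2BP2 fall is uncertain. It ran from -0.295 to -0.131 over the alternative settings. JAK2, STAT5A and STAT5B, which carry the growth hormone signal from GHR, had differences of -0.07, 0.06 and -0.04, none past the threshold. Within the diets PIK3R1, a regulatory subunit of the PI3 kinase, was higher in the high RFI line on the HF diet by 0.36 (adjusted p = 0.0192) and STC1 on the LF diet by 0.64 (adjusted p = 0.0406). ADAM28 also passed on the LF diet, where it was well above background in 2 of 12 low RFI and 8 of 12 high RFI pigs, so no fold is given. That made 1 of 31 called on the HF and 2 on the LF diet, against 6.99% and 2.77% of all symbols. ADAM28 is no support for the LF count. The interaction passed in limma for none of the 31, with 1 (PIK3R1) at an unadjusted p under 0.05, against 4.11% of all symbols.

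**Figure D5:**
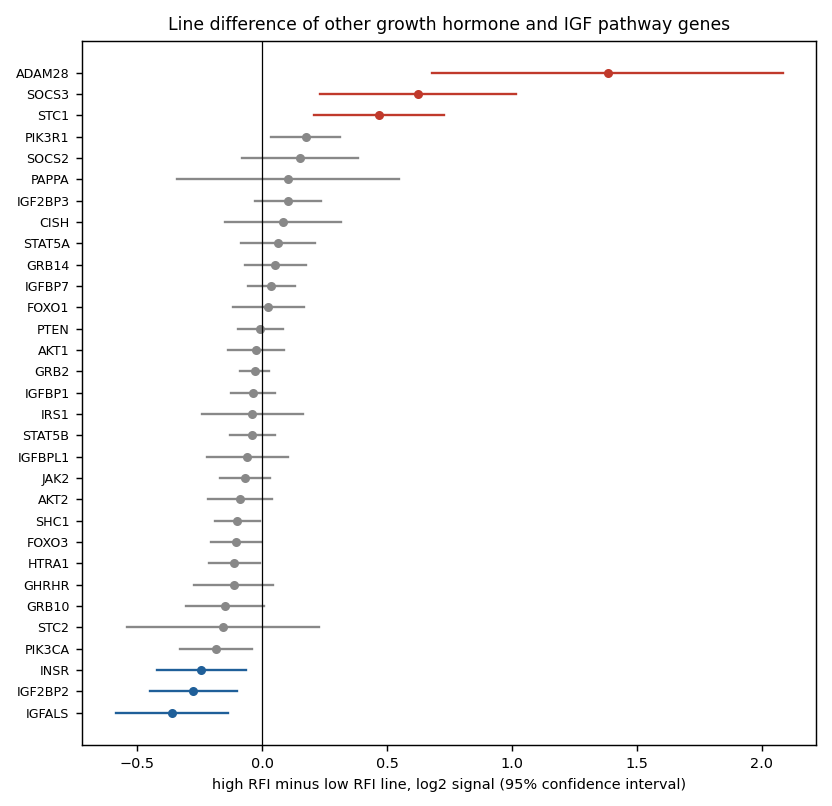
Line difference (x axis, high minus low RFI in log2 units, with its 95% confidence interval from limma) of the 31 measured genes of the growth hormone and IGF pathway that are not among the 10 members (y axis). Red and blue mark adjusted p under 0.05, and gray marks the others. ADAM28, at background in most low RFI pigs, lies farthest to the right, and IGFALS farthest to the left, at -0.36. A probe in the IGFALS average was at background in most high RFI pigs.

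A probe annotated with the human INS-IGF2 read-through transcript, outside the name rule, was lower in the high RFI line by 0.31 (adjusted p = 0.00237), but its values did not follow those of the 8 IGF2 probes among pigs of a group, with r of -0.06 to -0.01. Another probe outside the rule, which shares its sequence record with named IGF2 probes, did follow them (r = 0.750 to 0.831) and differed by -0.32 (adjusted p = 0.065). A_72_P155326, which overlaps the named probe O9318, followed them more closely (r = 0.944 to 0.995) and differed by -0.21 (adjusted p = 0.270). A further probe, A_72_P113676, carries the INS-IGF2 name in the annotation of the study but not on the array. It followed the 8 IGF2 probes (r = 0.882 to 0.904) and differed by -0.26 (adjusted p = 0.0832).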

How the data were processed

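Muscle RNA of 48 pigs was hybridised on one-colour 60 K Agilent arrays. The authors deposited scanner files with the intensity of each spot, background-subtracted by Feature Extraction (protocol GE1_107_Sep09), and a log2 table of 34472 probes that holds 33 of the 38 member probes. Each array had 61625 spots. The median intensity was 52.8 to 107.9 and 59.2% to 74.2% of probes were well above background. The number of arrays limits the precision. The genome build behind the probes was not given in the sources used here.

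Control and outlier spots were left out, spots of a probe were averaged, and log2 intensities were centred on the array mean of the tested probes. The fit used limma 3.58.1 in R 4.3.3 with 4 group means, from which the line, diet and interaction contrasts were taken, Benjamini-Hochberg adjusted over 42125 probes or 9302 symbols. A gene is the mean of its probes. Correlations used group-centred values and 100000 two-sided permutations within groups (Python 3.11.15). Both steps were tested on simulated data. Titles give each pig a number of its own. The limma p-values set a difference against the spread between pigs of a group. With a single line in each direction, they do not cover the spread between selected lines.

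The members, gene lists and alternatives were chosen with earlier results of these data known. The genes named are the members, with their brightest and their called probes, the called pathway genes and the symbol most correlated with each member. The JAK-STAT genes, PAPPA, PIK3R1 and the probes outside the name rule were chosen after their values were seen. The alternatives were other scalings, normexp background, filters, outlier spots, slide or scan day as a block, the deposited log2 table, plain variance analysis and 1 array left out.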

Additional observations from a re-analysis of the deposited data

How the results depend on the processing

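The direction of the line difference of IGFBP5, GHR and all IGF2 probes was the same in every alternative tried, and none of the values reported as called reversed. The calls for diet and for the interaction stayed at 0 in all settings. The number of member probes called for the line was 4 to 6. Without the filter on dim probes, where all 60305 probes are tested, no member probe passed on either diet alone (0 and 0 in place of 1 and 1), 1 gene passed for the line in place of 2, and 0 passed on each diet. Requiring all arrays well above background, or scan day as a block, gave 2 probes on the LF diet. Normexp gave 1 gene for the line. On the HF diet no gene (0) passed with 75th percentile scaling, quantile normalization, slide as a block or plain variance analysis, where IGFBP5 is the gene lost. The pathway list had 3 calls in place of 6 with the filter on all arrays and in the deposited log2 table. Quantile normalization gave 2 related pairs of members in place of 1, adding IGF2 with IGFBP6 (adjusted permutation p = 0.0227). The IGF2 average passed only with its brightest probe in place of the average (adjusted p = 0.0449), and IGF2BP2 was called in 9 of 12 settings. The cause was not tested. No paired analysis was possible because no pig numbers are shared between groups. The IGFBP3 probe O12810 was well above background on 30 of 48 arrays and the ADAM28 probe on 16.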
